A study of Drosophila melanogaster with 13 samples.

Results

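The voltage-gated and related ion channel genes of the fly nervous system were followed in RNA-seq libraries from *Drosophila melanogaster* heads. The genes were taken by name: 41 genes for pore-forming channel subunits and their auxiliary or regulatory proteins. Of these, 38 were matched to an identifier in the count files, out of 15682 genes counted. *para*, *Ca-beta* and *Irk1* are not analysed here.

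The study asked whether loss of trithorax-related (trr), a histone H3 methyltransferase that acts as a transcriptional co-activator, and loss of G9a, a histone H3 lysine methyltransferase, affect common genes. Libraries labelled *trr* knockdown (n = 2) came from flies of the genotype Elav-Gal4 / + with dicer2 / + and the *trr* hairpin P{TRiP.HMS01019}attP2 / +. Their *trr* controls (n = 2) carried the same driver and dicer2 with the empty insertion CaryP at attP2 and no hairpin. Libraries labelled *G9a* mutant (n = 3) came from flies with the *G9a*DD1 allele, and the *G9a* controls (n = 3) from the precise excision line, G9a+/+, with neither driver nor dicer2 in their labelled genotypes. All flies were adults labelled as 0 to 5 days old, and each library was made from an aliquot of pooled frozen heads. Elav-Gal4 acts in neurons, so glia, muscle and fat body of the *trr* knockdown heads were not targeted, whereas the *G9a* allele is carried by every cell of the head.

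Voltage-gated potassium, sodium and calcium channels open when the membrane is depolarized and together shape the action potential, its repetition and the release of transmitter. Calcium-activated, inward rectifier and leak channels set the resting potential and the pace of firing, and auxiliary subunits control how many channels reach the membrane and how they gate. In flies, mutants of several of these genes were first found through leg shaking under ether, paralysis at high temperature or altered sleep and courtship song.

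Gene counts per library ranged from 18114408 to 28171883, and reads that were not aligned took up between 7.86% and 20.4% of a count file, with the highest share in *G9a* control replicate 1. Neither targeted gene had a lower count in the libraries named for its loss. Levels are given as CPM, counts scaled to each library's total of gene counts after that total was adjusted by edgeR's TMM normalization. *trr* had 94.6 and 85.7 CPM in the libraries labelled *trr* knockdown, against 71.8 and 94.5 CPM in *trr* controls. Its log2 fold change was 0.12 (SE 0.15, adjusted p = 0.679 in edgeR's quasi-likelihood test). Whole heads also hold cells that Elav-Gal4 does not target, so this count does not check the knockdown in neurons. *G9a* had 74.8, 67.2 and 61.3 CPM in the libraries labelled *G9a* mutant, against 61.1, 57.0 and 50.9 CPM in *G9a* controls (log2 fold change 0.27, SE 0.11, adjusted p = 0.188 in the same test). The counts are per gene, so reads from any part of *G9a* that the DD1 allele keeps are included and the *G9a* count does not check that allele. The libraries are therefore called by their labels throughout, and each direction below rests on those labels. All 38 channel genes passed the filter on low counts (at least 10 counts summed over the libraries compared). *nan* had at most 9 counts in any library and *iav* between 51 and 125, while the other 36 averaged at least 100 counts per library. In whole heads, a lower or higher count can mean fewer or more cells of a type as well as less or more RNA per cell, and these cannot be told apart.

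At an adjusted p under 0.05, 5 of the 38 channel genes rose in the libraries labelled *G9a* mutant and none fell, where 3.64% of all 12329 genes tested rose and 7.49% fell. The genes that rose were *KCNQ*, *Slob*, *Ca-alpha1D*, *Best1* and *qvr*, by between 1.26-fold and 1.51-fold. A fold change over 1.5 beside the adjusted p, the threshold for a call, was reached by *Slob* alone, whereas 7.56% of all genes tested were called in either direction and 1.99% were called higher. In the libraries labelled *trr* knockdown no channel gene passed the test, where 1.03% of 11416 genes tested did (0.71% higher and 0.324% lower, all of them past 1.5-fold as well). In that comparison 4 of 38 channel genes had an unadjusted p under 0.05, where 19.2% of all genes tested did. DESeq2's Wald test called 1, *Irk2*, and the share of all genes called by that test is not given here. The plot of fold changes by gene shows the 2 comparisons side by side.

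**Figure D1:**
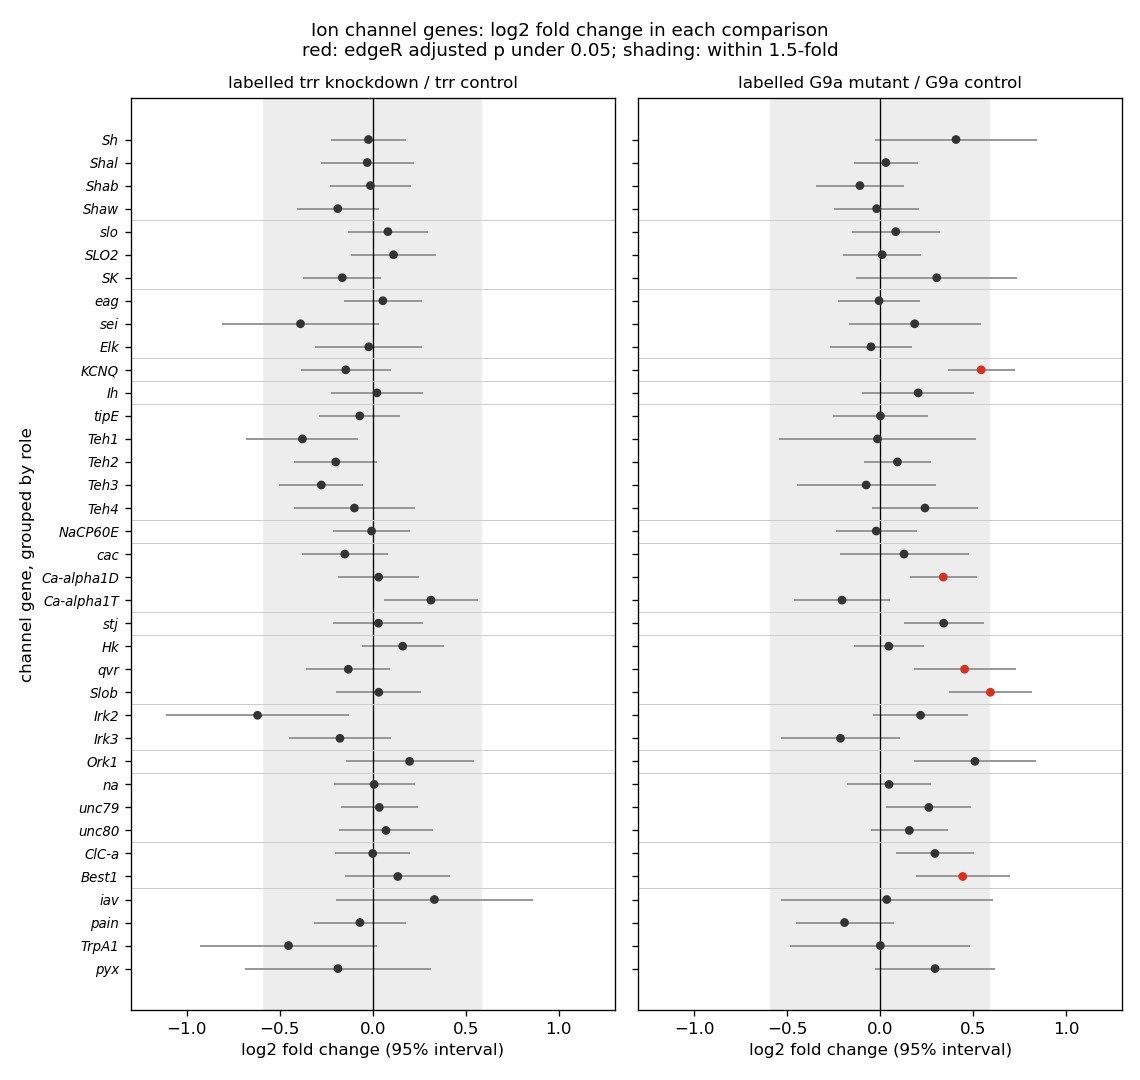
Log2 fold change (x axis) of 37 channel genes (y axis, grouped by role) between libraries labelled *trr* knockdown and *trr* controls (left) and between libraries labelled *G9a* mutant and *G9a* controls (right). Points are edgeR estimates, bars 95% intervals, red points have an adjusted p under 0.05 and the grey band marks changes within 1.5-fold. Red points stand only in the right panel, all to the right of 0, and *nan*, with at most 9 counts in a library, is left out because its interval exceeds the axis.

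Among the voltage-gated potassium channels, *KCNQ* encodes the fly M-type channel, which opens near the resting potential and damps repetitive firing. *KCNQ* had 160, 162 and 155 CPM in the libraries labelled *G9a* mutant, against 112, 111 and 104 CPM in *G9a* controls. Every library labelled mutant was above every control, and the gap was several times the spread within either group, at 159 ± 3.63 CPM and 109 ± 4.54 CPM (mean ± SD, n = 3 each). The log2 fold change was 0.54 (SE 0.08), with an adjusted p of 0.0041 in edgeR's quasi-likelihood test. In the *trr* experiment *KCNQ* had 77.2 and 68.3 CPM in the libraries labelled *trr* knockdown, against 79.4 and 81.5 CPM in controls (log2 fold change −0.14, adjusted p = 0.440). *KCNQ* overlaps *CG18011* and 2 other genes in the Release 6 annotation, and the strand setting of the counting is not stated. *CG18011*, with a mean of 155 and 112 counts in the libraries labelled mutant and the controls, had a log2 fold change of 0.16 and did not pass the test (adjusted p = 0.651).

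The Shaker-type channels carry the fast and the delayed outward currents of fly neurons. None of *Shal*, *Shab* and *Shaw* passed the test in either comparison, and their log2 fold changes lay between −0.11 and 0.03 in the *G9a* comparison and between −0.19 and −0.01 in the *trr* comparison. *Sh*, the A-type channel whose mutants shake their legs under ether and sleep little, had 767, 687 and 620 CPM in the libraries labelled *G9a* mutant, against 368, 604 and 591 CPM in *G9a* controls. The groups did not overlap, but *G9a* control replicate 1 alone lay far below the other control libraries, and the log2 fold change of 0.41 (SE 0.19) did not pass the test (adjusted p = 0.222). *SK*, the small-conductance calcium-activated channel, was lowest in that library as well. Its values were 457, 370 and 304 CPM in the libraries labelled *G9a* mutant, against 239, 361 and 315 CPM in controls (log2 fold change 0.30, adjusted p = 0.351). *slo* and *SLO2*, the other ion-activated potassium channels, had log2 fold changes of 0.08 and 0.01.

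None of the 3 EAG-family channels passed the test in either comparison. *sei*, the ERG channel whose mutants seize at high temperature, had 20.1 and 22.3 CPM in the libraries labelled *trr* knockdown, against 31.9 and 23.6 CPM in *trr* controls. These groups did not overlap, but *trr* control replicate 1 stood well above the other 3 libraries and the log2 fold change of −0.39 (SE 0.17) did not pass the test (adjusted p = 0.284 in edgeR's test). Without that control it was −0.16, and without *trr* control replicate 2 it was −0.59. Each of these fits has 1 control left and assumes that it varies like the libraries labelled knockdown. *sei* overlaps *gammaSnap1*, which averaged more counts than *sei* and had a log2 fold change of −0.37 in the same comparison. In the *G9a* comparison *sei* had a log2 fold change of 0.19, *eag* −0.01 and *Elk* −0.05. *Ih*, the hyperpolarization-activated cation channel, had a log2 fold change of 0.20 in the *G9a* comparison and 0.02 in the *trr* comparison, and neither passed.

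Potassium channel regulators held 2 of the 5 genes that rose in the libraries labelled *G9a* mutant. *Slob*, a protein that binds the Slowpoke calcium-activated channel and changes its gating, had 720, 832 and 831 CPM in these libraries, against 501, 551 and 528 CPM in *G9a* controls. The lowest library labelled mutant stood well above the highest control. *Slob* rose by a log2 fold change of 0.59 (SE 0.10, adjusted p = 0.0070 in edgeR's quasi-likelihood test), a 1.51-fold difference that lies at the fold threshold itself. The call was therefore lost, through the fold and not through the adjusted p, without *G9a* control replicate 1 or 3 (log2 fold change 0.56 and 0.58) and without mutant replicate 2 or 3 (0.56 and 0.56). *Slob* overlaps *Myo28B1*, a myosin gene that rose in the same libraries, with a mean of 532 against 240 counts (log2 fold change 0.88, adjusted p = 0.0054). Its counts were far below those of *Slob*, and whether reads of one were counted for the other was not tested.

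*qvr*, also called sleepless, encodes a membrane-anchored protein that raises the level and activity of Shaker channels and is needed for normal sleep. *qvr* had 482, 503 and 473 CPM in the libraries labelled *G9a* mutant, against 295, 392 and 377 CPM in *G9a* controls. *G9a* control replicate 1 was again the lowest of the controls, as it was for *Sh* and *SK*. The log2 fold change was 0.45 (SE 0.12, adjusted p = 0.0475 in edgeR's test), and without that library it was 0.34 (adjusted p = 0.0605). *Hk*, the beta subunit of the Shaker channel, had a log2 fold change of 0.05 and an interval from −0.14 to 0.24.

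**Figure D2:**
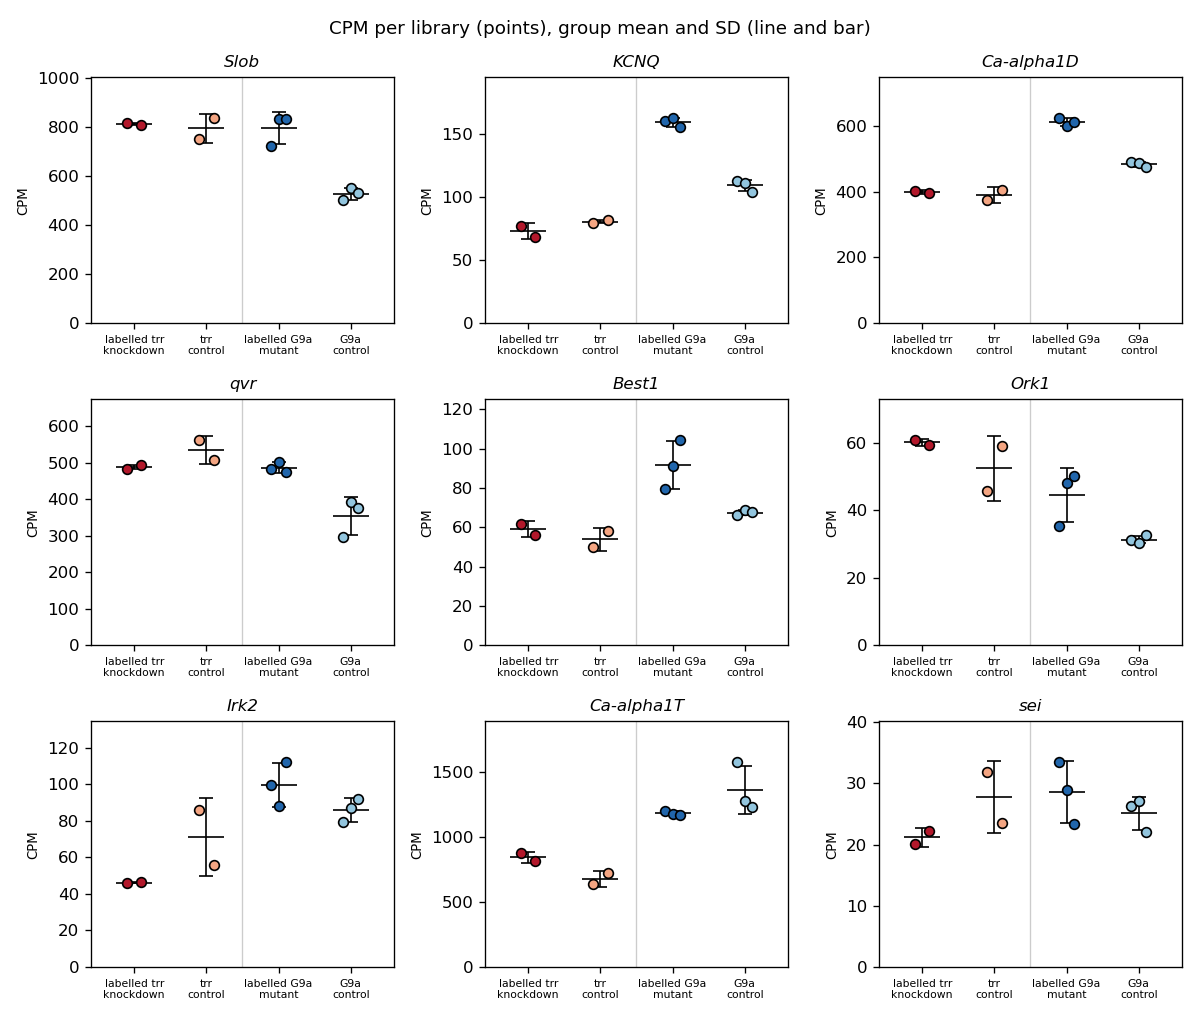
CPM (y axis, from 0) of 9 channel genes in each library, in 4 groups on the x axis: labelled *trr* knockdown, *trr* control, labelled *G9a* mutant and *G9a* control. Points are libraries, lines group means and bars SD (n = 2 in the *trr* groups, 3 in the *G9a* groups). *Slob*, *KCNQ*, *Ca-alpha1D*, *qvr* and *Best1* show every library labelled *G9a* mutant above every *G9a* control, and *Irk2* shows both libraries labelled *trr* knockdown near 46 CPM below 2 unequal controls.

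Of the calcium channels, *Ca-alpha1D* rose in the libraries labelled *G9a* mutant. It encodes the L-type pore subunit, which carries calcium currents of muscle and of neuronal cell bodies and dendrites. *Ca-alpha1D* had 623, 598 and 613 CPM in these libraries, against 489, 486 and 475 CPM in *G9a* controls. The libraries within each group lay close together and the groups did not overlap. *Ca-alpha1D* rose by a log2 fold change of 0.34 (SE 0.08, adjusted p = 0.0301 in edgeR's test). *stj*, the alpha2-delta subunit that carries calcium channels to synaptic terminals, had 646, 674 and 568 CPM in the libraries labelled *G9a* mutant and 501, 499 and 489 CPM in *G9a* controls. Here too the groups did not overlap, and the log2 fold change of 0.34 (SE 0.09) narrowly missed the threshold (adjusted p = 0.0557). *cac*, the presynaptic channel that triggers transmitter release, had 405, 384 and 271 CPM in the libraries labelled mutant, against 327, 339 and 303 CPM in controls, which overlapped.

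*Ca-alpha1T* encodes the low-voltage-activated T-type channel. It had 1198, 1176 and 1168 CPM in the libraries labelled *G9a* mutant, against 1575, 1275 and 1233 CPM in *G9a* controls, the only channel gene for which all libraries labelled mutant lay below all controls. *G9a* control replicate 1 stood well above the other controls. The log2 fold change of −0.21 (SE 0.11) did not pass edgeR's test (adjusted p = 0.294), and it ranged from −0.29 to −0.09 over left-out libraries. In the *trr* experiment *Ca-alpha1T* had 874 and 814 CPM in the libraries labelled *trr* knockdown, against 635 and 723 CPM in *trr* controls. The log2 fold change was 0.31 (SE 0.10), the largest increase of the channel genes with at least 100 counts apart from *iav*, and the adjusted p was 0.198. Without *trr* control replicate 1 it was 0.22 and without replicate 2 it was 0.41, each with 1 control left. The estimates had opposite signs in the 2 experiments, but neither passed. Their difference of −0.52 (SE 0.17, adjusted p = 0.0872 in edgeR's test) did not pass either.

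The Para sodium channel gene itself, *para*, was not analysed, so its level is not known here. No other sodium channel gene or auxiliary gene passed the test in either comparison. *NaCP60E*, a second fly gene of the voltage-gated sodium channel family, had log2 fold changes of −0.01 in the *trr* comparison (95% interval −0.21 to 0.20) and −0.02 in the *G9a* comparison (95% interval −0.24 to 0.20). *tipE* and the 4 related genes *Teh1* to *Teh4* encode auxiliary proteins of the Para sodium channel. In the *trr* comparison all 5 had negative log2 fold changes, from −0.38 to −0.07 with a median of −0.20, and none passed the test. Of all 11416 genes tested there, 5692 were negative, as were all 5 voltage-gated potassium channels analysed. *Teh1* had 22.8 and 25.8 CPM in the libraries labelled *trr* knockdown, against 33.0 and 30.0 CPM in *trr* controls (log2 fold change −0.38, SE 0.12, adjusted p = 0.194 in edgeR's test). With 1 *trr* control left its log2 fold change was −0.32 or −0.44. *Teh3* followed with −0.28 (adjusted p = 0.202). *Teh2* and *Teh3* overlap each other in the annotation, and *tipE*, *Teh2*, *Teh3* and *Teh4* all overlap *CG18675*. In the *G9a* comparison the same 5 genes had a median log2 fold change of 0.00, and *Teh1* spread 1.84-fold among the libraries labelled mutant.

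Inward rectifiers pass potassium more readily into the cell than out of it. *Irk2* had 46.1 and 46.4 CPM in the libraries labelled *trr* knockdown, against 86.1 and 55.9 CPM in *trr* controls. Both libraries labelled knockdown were below both controls, but the 2 controls differed 1.54-fold, the widest spread between *trr* controls of the 36 channel genes averaging at least 100 counts. The log2 fold change was −0.62 (SE 0.20), the largest decrease, and did not pass edgeR's quasi-likelihood test (adjusted p = 0.194). Without *trr* control replicate 1 it was −0.28 and without replicate 2 it was −0.90, and both passed in fits where the remaining control is assumed to vary like the libraries labelled knockdown. With 1 control left, the count of channel genes with an adjusted p under 0.05 was 4 of 38 without control replicate 1, where 21.1% of all genes tested passed, and 17 of 37 without control replicate 2, where 50.4% did. The 4 were *Irk2*, *Ca-alpha1T*, *Teh1* and *Teh3*, and all of them were among the 17. The count was 0 when either library labelled knockdown was left out. In the *G9a* comparison *Irk2* had 99.5, 88.0 and 112 CPM in the libraries labelled mutant and 79.1, 86.9 and 91.7 CPM in controls, which overlapped. *Irk3* had 13.3, 17.3 and 15.6 CPM in the libraries labelled *G9a* mutant, against 20.4, 16.5 and 16.8 CPM in controls. Its log2 fold change of −0.21 (SE 0.14) was the largest decrease of a channel gene with at least 100 counts in that comparison and did not pass (adjusted p = 0.373).

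Leak channels are open at rest and set the membrane potential. *Ork1*, a 2-pore potassium leak channel, had 35.4, 48.1 and 50.2 CPM in the libraries labelled *G9a* mutant, against 31.1, 30.3 and 32.6 CPM in *G9a* controls. The groups did not overlap, although mutant replicate 1 was close to the controls. The log2 fold change was 0.51 (SE 0.14, adjusted p = 0.0603 in edgeR's test). With the replicate number as a block the adjusted p was 0.0431, and without mutant replicate 1 the log2 fold change was 0.63 (adjusted p = 0.0125). In the *trr* experiment *Ork1* had 60.9 and 59.5 CPM in the libraries labelled *trr* knockdown, against 45.6 and 59.3 CPM in controls (log2 fold change 0.20, adjusted p = 0.454).

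The sodium leak channel *na* (narrow abdomen) and its partners *unc79* and *unc80*, which are needed for rhythmic locomotor activity, had positive log2 fold changes in both experiments, and none passed. *unc79* was the largest, at 0.26 in the *G9a* comparison (SE 0.10, adjusted p = 0.146), with 936, 1086 and 1025 CPM in the libraries labelled mutant against 910, 839 and 793 CPM in controls. In the *trr* comparison the 3 genes lay between 0.01 and 0.07, with 95% intervals inside 1.5-fold.

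Both chloride channel genes of the list were higher in every library labelled *G9a* mutant than in any *G9a* control, where 15.1% of all genes tested were. The ClC and bestrophin genes tested outside the list had negative log2 fold changes: *Best2* −0.21, *ClC-c* −0.16 and *ClC-b* −0.05. None of these passed the test. *Best1*, a bestrophin with calcium- and swelling-activated chloride current in fly cells, had 79.7, 91.3 and 104 CPM in the libraries labelled mutant, against 66.2, 68.6 and 67.7 CPM in controls. The controls lay within a few CPM of each other and the libraries labelled mutant spread more widely. *Best1* rose by a log2 fold change of 0.44 (SE 0.11, adjusted p = 0.0387 in edgeR's test). *ClC-a*, a voltage-gated chloride channel known from glia, had 234, 272 and 250 CPM in the libraries labelled mutant and 195, 211 and 210 CPM in controls (log2 fold change 0.29, SE 0.09, adjusted p = 0.0805).

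Most sensory TRP channels had low counts and so wide errors. *TrpA1*, a heat and irritant sensor, had 3.53 and 3.33 CPM in the libraries labelled *trr* knockdown, against 4.90 and 4.49 CPM in *trr* controls (log2 fold change −0.45, SE 0.19, adjusted p = 0.273). *iav*, a channel of hearing and stretch-sensing neurons, had 4.46 and 3.82 CPM in the libraries labelled *trr* knockdown, against 3.55 and 3.03 CPM in controls (log2 fold change 0.33, SE 0.22, adjusted p = 0.421). Neither difference was distinguishable from the spread at this depth. *pain*, a channel of heat-sensing neurons, had 50.1, 42.8 and 44.2 CPM in the libraries labelled *G9a* mutant, against 49.4, 58.3 and 48.8 CPM in *G9a* controls (log2 fold change −0.19, SE 0.11, adjusted p = 0.336). *pain* overlaps *NaCP60E*, which had far more counts. *pyx* had a log2 fold change of 0.30 in the *G9a* comparison (adjusted p = 0.234), and *nan* had too few counts for a fold to be read.

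Over the 38 genes the median log2 fold change was 0.09 in the *G9a* comparison, where it was 0.04 over all genes tested, and 27 channel genes had a positive value (54.3% of all genes did). In 12 channel genes every library labelled *G9a* mutant exceeded every *G9a* control, and in 1 it was below every control, against 15.1% and 16.8% of all genes. In the *trr* comparison the median was −0.02, where it was 0.00 over all genes, with 17 positive and 21 negative values. Non-overlapping groups there numbered 6 higher and 15 lower, against 28.0% and 28.6% of all genes. The estimates were narrow: 31 of 38 channel genes in the *trr* comparison and 28 of 38 in the *G9a* comparison had a 95% interval inside 1.5-fold, against 44.9% and 38.3% of all genes tested. Those shares were not matched for depth. They include genes with as few as 10 counts summed, whereas 36 of the channel genes averaged at least 100 counts per library. In the *trr* comparison the 7 genes with wider intervals were *sei*, *Teh1*, *Irk2*, *iav*, *nan*, *TrpA1* and *pyx*. For the other 31, a change of 1.5-fold in whole heads lay outside the interval, and whole heads do not resolve changes in small subsets of neurons.

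**Figure D3:**
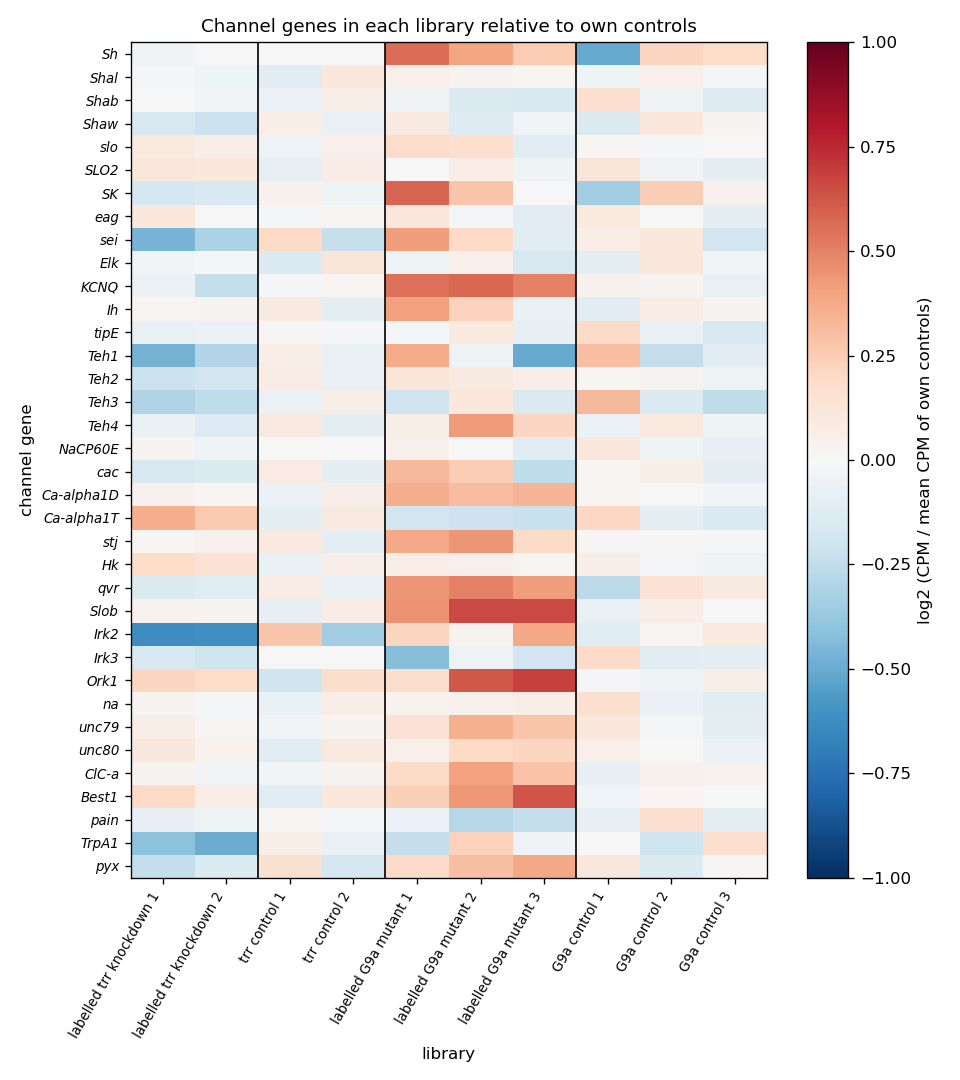
Log2 ratio of each library's CPM to the mean CPM of its own controls (color scale, −1 to 1) for the 36 channel genes averaging at least 100 counts (rows) in the 10 libraries (columns). *KCNQ*, *Slob* and *qvr* are red in all 3 libraries labelled *G9a* mutant, *Irk2* is blue in both libraries labelled *trr* knockdown, and *G9a* control replicate 1 is blue for *Sh*, *SK* and *qvr*.

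The 5 genes that rose differed in how firmly they did so. *KCNQ* and *Slob* had an adjusted p under 0.05 under each of 13 alternatives that test against no change, including each replicate left out in turn. Their adjusted p lay between 1.82e-08 and 0.0283 for *KCNQ* and between 8.75e-09 and 0.0340 for *Slob*. The 13 leave out glmTreat, edgeR's test against a 1.5-fold change, with which no channel gene was called. *Ca-alpha1D* and *qvr* lost it without any 1 of the 6 libraries, with adjusted p between 0.0519 and 0.125 for *Ca-alpha1D* and between 0.0605 and 0.138 for *qvr*, and log2 fold changes of 0.31 to 0.35 and 0.34 to 0.53. *Best1* lost it without each library (adjusted p between 0.0954 and 0.120) apart from mutant replicate 1, without which it was 0.0213. These 3 genes also missed the threshold with the share of reads outside genes as a covariate (adjusted p of 0.0571 for *Ca-alpha1D*, 0.0718 for *Best1* and 0.0911 for *qvr*).

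The difference between the *G9a* effect and the *trr* effect was tested with all 10 libraries in 1 fit. The experiments differ in genetic background, driver and controls as well as in the gene targeted, and these cannot be told apart. An adjusted p under 0.05 was reached by 3 of the 38 channel genes, each with the higher value in the *G9a* experiment, where 4.06% of all 12871 genes tested were higher, 5.8% lower and 9.86% either. With a difference over 1.5-fold as well, *KCNQ* and *Irk2* were called, where 3.77% of all genes were called higher and 9.26% in either direction. The difference was positive for 27 channel genes and for 53.7% of all genes. *KCNQ* differed by 0.69 on the log2 scale (SE 0.13, adjusted p = 0.0089 in edgeR's quasi-likelihood test), and by 0.61 (adjusted p = 0.0606) without knockdown replicate 2. *Slob* differed by 0.56 (SE 0.14, adjusted p = 0.0302). With the replicate number as a block its adjusted p was 0.0528, and without 1 library it ranged from 0.0212 to 0.141, under 0.05 only without *G9a* mutant replicate 1 or *trr* control replicate 1. *Irk2* differed by 0.83 (SE 0.23, adjusted p = 0.0486). Its difference was 0.49 (adjusted p = 0.179) without *trr* control replicate 1 and 1.11 (adjusted p = 0.0043) without *trr* control replicate 2, and without any other 1 library the adjusted p lay between 0.0519 and 0.186. With RLE normalization it was 0.0536. *qvr*, which rose in the libraries labelled *G9a* mutant, differed by 0.58 (SE 0.17, adjusted p = 0.0546), and neither *Ca-alpha1D* (adjusted p = 0.146) nor *Best1* (adjusted p = 0.300) was shown to differ between the experiments.

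Summed levels of neuron, photoreceptor, muscle and male markers did not overlap between the *G9a* groups. Those of glia, fat body, and reproductive and gut markers did overlap. The summed level of the 38 channel genes was 13946 to 14843 CPM in the libraries labelled *G9a* mutant, against 12768 to 13475 CPM in *G9a* controls. The 14 neuron markers summed to 9571 to 10436 CPM in the libraries labelled mutant and 9176 to 9321 CPM in controls, and none of the 14 passed the test. The 12 photoreceptor markers summed to 76023 to 78794 CPM, against 54720 to 61631 CPM in controls, with 5 of 12 higher and none lower. *ninaE* alone held 42080 to 43297 CPM of that sum in the libraries labelled mutant and 25807 to 33445 CPM in controls. Sums of muscle markers were 9567 to 10405 CPM in the libraries labelled mutant and 11730 to 12079 CPM in controls (3 of 10 tested lower). Glia markers summed to 2077 to 2309 CPM, against 2203 to 2692 CPM in controls (4 of 11 lower). *Gs2* alone held 1200 to 1522 CPM of the glia sum in the libraries labelled mutant and 1133 to 1642 CPM in controls. Of the 11 glia markers, 10 had negative log2 fold changes. Fat body markers summed to 2257 to 3302 CPM in the libraries labelled mutant, against 3281 to 7801 CPM in controls (3 of 8 lower). The male markers *roX1* and *roX2* summed to 1088 to 1362 CPM in the libraries labelled mutant and 685 to 904 CPM in controls, with *roX1* higher. Reproductive and gut markers summed to 0.490, 0.543 and 66.2 CPM in the libraries labelled mutant and 1.91, 1.32 and 77.2 CPM in controls, and none of 11 tested passed. Replicate 3 stood far above the others in both groups. The part of these shifts in the channel gene results was not tested. No defining marker of neurons, photoreceptors or glia was at 0 in any group.

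In the *trr* experiment the channel genes summed to 10882 to 11084 CPM in the libraries labelled *trr* knockdown and 10763 to 10963 CPM in *trr* controls, which overlapped. None of the neuron, photoreceptor, glia or muscle markers passed the test there. Fat body markers summed to 5400 to 5564 CPM in the libraries labelled knockdown, against 7457 to 9317 CPM in controls, with *Yp1* and *Yp3* lower, and muscle markers to 4794 to 4999 CPM, against 3711 to 4217 CPM in controls. Male markers summed to 1757 to 1900 CPM in the libraries labelled knockdown and 2154 to 2330 CPM in controls. Reproductive and gut markers summed to 4.31 to 4.64 CPM, against 0.183 to 0.438 CPM in controls, with 2 of 4 tested higher. The part of these shifts in the channel gene results was not tested.

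**Figure D4:**
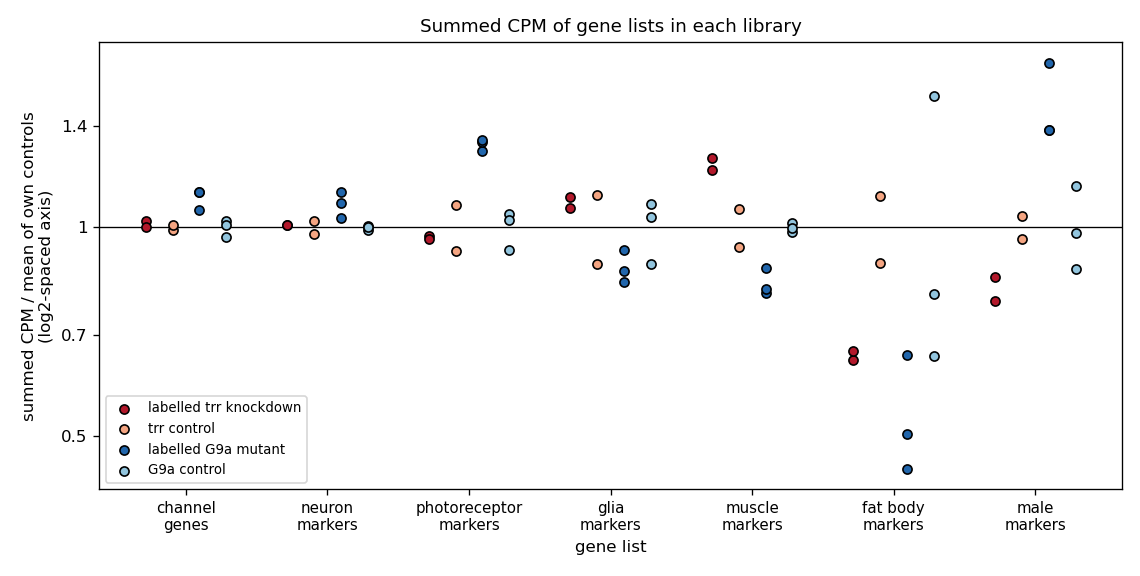
Summed CPM of the channel genes and of 6 marker lists in each library, divided by the mean of the library's own controls (y axis, log spacing). Points are libraries, in the order labelled *trr* knockdown, *trr* control, labelled *G9a* mutant and *G9a* control within each list. In the libraries labelled *G9a* mutant, channel genes (1.06 to 1.13) and neuron markers (1.03 to 1.13) lie above every *G9a* control. Photoreceptor and male markers lie further above 1, and muscle, glia and fat body markers lie below 1. The glia and fat body points overlap those of the *G9a* controls.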

How the data were processed

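The authors sequenced messenger RNA of pooled fly heads as short reads, aligned them to dm3 with BWA 0.6.1, kept unique alignments and counted reads per gene with HTSeq. The deposited values are raw, whole counts per gene. The strand setting is not given in the sources used here. Each file's 5 summary lines were left out. Symbols were matched to 15002 of 15682 identifiers (95.7%) from Release 6 tables, used for names and overlaps only.

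Each experiment was fitted alone in R 4.3.3 with edgeR 4.0.16 (TMM, at least 10 counts summed, quasi-likelihood test, Benjamini-Hochberg over all genes tested). SEs were taken from the log2 fold change and its F statistic. Called genes had an adjusted p under 0.05 and a fold over 1.5. On simulated data with 200 genes changed 4-fold, 200 were recovered in the *trr* design (7 false calls) and 179 in the *G9a* design (3 false calls). Changes near 1.5-fold were not simulated, so this does not show how many changes of that size would be found.

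The channel genes and marker lists were chosen with earlier results of these data known. Named with values in every library were genes called, the 3 with the smallest adjusted p, and the 3 with the largest increase and decrease among genes averaging at least 100 counts in the higher group. Other genes given by library were chosen after their values were seen. Same-numbered *G9a* libraries deviated together (correlations 0.31, 0.25 and 0.57). The labels name no shared batch, and mutant replicate 2 correlated as closely with control replicate 1 (0.28). The numbers were taken as pairs only in the alternative with a replicate block, and the main fits carry no block. The alternatives were RLE normalization, DESeq2 1.42.0, filterByExpr, no filter, glmTreat, no fold threshold, a replicate block, 1 fit of 10 libraries, the share of reads outside genes as a covariate (*G9a*) and each replicate left out. The replicates are biological according to the study. The deposited *trr* binding sites were not used here.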

Additional observations from a re-analysis of the deposited data

Results flagged for a closer look

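For 3 of 38 channel genes the effect in the libraries labelled *G9a* mutant differed from that in the libraries labelled *trr* knockdown in the test of the difference itself (edgeR's quasi-likelihood test over all 10 libraries), where 9.86% of all 12871 genes tested differed. The log2 difference, *G9a* effect minus *trr* effect, was 0.69 for *KCNQ*, 0.56 for *Slob* and 0.83 for *Irk2*, with adjusted p of 0.0089, 0.0302 and 0.0486. *KCNQ* kept an adjusted p under 0.05 in 14 of 15 alternatives, *Slob* in 6 and *Irk2* in 5. The 15 leave out glmTreat, edgeR's test against a 1.5-fold change, with which no channel gene was called. For *KCNQ* and *Irk2* the estimates had opposite signs in the 2 experiments, although neither passed the test in the *trr* comparison, and for *Slob* the *trr* effect was near 0 (log2 fold change 0.03, 95% interval −0.20 to 0.26).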

How the results depend on the processing

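In the *trr* comparison, the count of 0 called channel genes, and of 0 at an adjusted p under 0.05, became 1 in each case (*Irk2*) with DESeq2, with the replicate block and with crossed pairing, which was added after seeing the data because same-numbered *trr* libraries correlated at −0.26. Leaving out a replicate gave 0 to 2 called and 0 to 17 at an adjusted p under 0.05. In the *G9a* comparison, the 1 called gene became 0 with glmTreat or with the share of reads outside genes as a covariate, and 5 with no fold threshold. Left-out replicates gave 0 to 2. The 5 genes at an adjusted p under 0.05 became 9 with DESeq2, 8 with 1 fit of 10 libraries, 2 with the covariate (*KCNQ* and *Slob*) and 2 to 4 with a replicate left out. The replicate block gave 6 and left *Slob* the 1 called gene. For the difference, the 2 called genes became 1 with RLE normalization, 0 with glmTreat and 0 to 3 with a replicate left out, and the 3 at an adjusted p under 0.05 became 5 with DESeq2 and 0 to 3 with a replicate left out. The replicate block gave 2 of each. Apart from the left-out *trr* libraries, the shares of all genes passing under these alternatives are not given here. These counts therefore show how the calls depend on the processing and are not results about channel genes. The causes were not tested.

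Signs changed for estimates near 0 and far from the threshold. In the *G9a* comparison, *TrpA1* was −0.0059 with filterByExpr, −0.0025 with the replicate block, −0.00026 in 1 fit of 10 libraries and −0.050 with the covariate, and *Teh1* was 0.051 with the covariate. Over left-out replicates *TrpA1* ranged from −0.13 to 0.089, *Teh1* from −0.27 to 0.18 and *iav* from −0.074 to 0.10 in the *G9a* comparison, *Ca-alpha1D* from −0.033 to 0.094 and *Slob* from −0.048 to 0.11 in the *trr* comparison, and *Irk3* from −0.13 to 0.046 in the difference. With 2 libraries a group, leaving one out leaves a fit that assumes the lone library varies like the others. The block moved the adjusted p across 0.05 only for *Irk2* in the *trr* comparison, *Ork1* in the *G9a* comparison and *Slob* in the difference. Of these, only *Irk2* changed its call. Depth limits *nan* and *iav*.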

Other observations

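Related genes outside the channel list were read in the same fits. Of 25 other ion channel genes tested in the *G9a* comparison, 1 fell and 1 rose, where 7.49% of all genes tested fell and 3.64% rose. *sand*, a 2-pore potassium leak channel with a role in sleep, had 15.9, 16.1 and 17.7 CPM in the libraries labelled *G9a* mutant, against 54.2, 64.9 and 56.9 CPM in *G9a* controls (log2 fold change −1.82, SE 0.11, adjusted p = 0.00013 in edgeR's quasi-likelihood test). The difference of *sand* was larger than that of any of the 38 channel genes, and in the *trr* comparison its log2 fold change was 0.05. *trpl*, a light-activated channel of photoreceptors, rose by a log2 fold change of 0.66 (SE 0.12, adjusted p = 0.0108), beside the higher photoreceptor markers of the same libraries.

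Of 14 ion transporter genes tested, 4 fell and none rose in the libraries labelled *G9a* mutant, against the same shares of all genes. These were the sodium/proton antiporters *Nha2* (log2 fold change −0.81) and *Nha1* (−0.50), the sodium pump beta subunit *nrv1* (−0.62) and the cotransporter *NKCC* (−0.49). None of 13 genes for proteins that regulate channels passed the test, and no gene of the 3 lists passed in the *trr* comparison. *nrv3*, another sodium pump beta subunit, had 1308, 1036 and 888 CPM in the libraries labelled *G9a* mutant, against 134, 785 and 846 CPM in *G9a* controls. *G9a* control replicate 1, which was also lowest for *Sh*, *SK* and *qvr*, lay far below the other controls. *nrv3* did not pass the test (log2 fold change 0.87, adjusted p = 0.367) and was chosen after its values were seen.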
